A study of Homo sapiens with 12 samples.

Results

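KLK2, KLK3, KLK4, TMPRSS2, FKBP5, FOXA1, SLC45A3 and STEAP2 are 8 genes tied to the androgen receptor in prostate epithelium. They were taken by gene symbol from a deposited expression table of 58302 genes, and each symbol matched 1 row. The table covered 12 RNA-sequencing libraries of 3 established human prostate cell lines, with 4 libraries each of BPH-1, DU145 and PC3. BPH-1 is labelled a benign prostate line, and DU145 and PC3 are prostate cancer (PCa) lines. All 3 lines were labelled wild type and were grown in the same serum-supplemented medium, and the labels name no hormone, drug or genetic change in any group. Each group is 1 cell line, so a difference between groups is a difference between these lines and cannot be told apart from one between the people they came from.

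The androgen receptor is a nuclear hormone receptor that is held by chaperones in the cytoplasm, binds androgen, moves to the nucleus and binds DNA as a dimer at pairs of short half-sites. In prostate luminal cells it acts at enhancers opened by FOXA1, a forkhead pioneer factor, and drives secreted kallikreins such as KLK3, the gene of prostate-specific antigen. DU145 and PC3 are known as lines that grow without androgen, and KLK3 is used widely as a readout of the receptor's activity.

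The 8 genes fell into 2 sets of unlike level. KLK2, KLK3 and KLK4 gave 10 reads in all 12 libraries together, while TMPRSS2, FKBP5, FOXA1, SLC45A3 and STEAP2 passed the filter on low values in at least 2 of the 3 comparisons. Of these 5, FOXA1, SLC45A3 and TMPRSS2 were highest in PC3, STEAP2 was highest in BPH-1 in the values as deposited, and FKBP5 was lower in PC3 than in BPH-1. In bulk RNA, fewer cells that express a gene and less RNA per cell cannot be told apart.

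Values are FPKM as the authors deposited them, that is, fragments scaled by exon length and by library depth. Library depth was 12950665 to 16309561 reads, and 1 read gave an FPKM of well under 0.1 for each of the 8 genes, so that a limit of 3 reads per library could be set for each. Intervals of reads and of ratios of reads, and the limit of 3 reads, cover counting error only. Intervals of differences come from limma and rest on the spread between libraries. Differences are of log2(FPKM + 1), which understates the change of genes with an FPKM near or below 1. A gene was called at a Benjamini-Hochberg adjusted p under 0.05 from limma over all genes tested. The labels do not say whether the 4 libraries of a line came from separate cultures, and p-values measure only the spread between these libraries.

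The labelled tissue was checked against its markers. Of 5 prostate luminal markers, MSMB was listed at 0 in all 12 libraries, ACPP (prostatic acid phosphatase) reached a mean of 0.508 in BPH-1, 0.128 in PC3 and 0.00486 in DU145, and the luminal keratins KRT8 and KRT18 were at a mean FPKM of 19.7 to 69 in the 3 lines. The 5 basal markers summed to an FPKM of 313 to 441 in the BPH-1 libraries against 0.173 to 1.16 in DU145 and 1.08 to 2.43 in PC3. In BPH-1 the basal keratins KRT5 and KRT14 reached 147 and 203. KRT15 was the exception among the basal markers, at 1.67 in PC3, 1.31 in BPH-1 and 0.27 in DU145. Among 4 leukocyte markers, CD3E was listed at 0 in every library, PTPRC averaged 1.35 in BPH-1, 0.649 in DU145 and 0 in PC3, MS4A1 was at or below a mean of 0.0344, and CD68, which other cells also express, averaged 4.71, 6.17 and 10.9.

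KLK2, KLK3 and KLK4 encode secreted serine proteases of the prostate and lie within 1 cluster on chromosome 19 (GRCh38). KLK3 spans chr19:50854915-50860764 and KLK2 spans chr19:50861568-50880567, both on the plus strand, and KLK4 spans chr19:50906352-50910738 on the minus strand. KLK3 had 0 reads in each of the 12 libraries. At the limit of 3 reads this allows an FPKM of up to 0.0157 to 0.0198, depending on the library.

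KLK2 had 3 reads in BPH-1 replicate 2 (FPKM 0.0114) and 0 reads in the other 11 libraries. KLK4 had 3 reads in PC3 replicate 2 (FPKM 0.0512), 4 reads in PC3 replicate 4 (FPKM 0.0723) and 0 reads in the other 10. KLK2 therefore did not rise above the limit of 3 reads anywhere, and KLK4 did so in 1 library only. Pooled over the 4 libraries, KLK4 in PC3 came to 0.131 RPM, reads scaled to a common depth (95% exact Poisson interval 0.0526 to 0.27), and KLK2 in BPH-1 to 0.0485 RPM (0.01 to 0.142). None of the 3 passed the filter in any comparison, so none was tested, and differences in their levels between lines were not detectable at this depth. KLK2 and KLK3 are close copies, and how the authors' counting treated reads that match both is not given in the sources used here.

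The sequences before the start sites of KLK3 and KLK2 are shown because these paired genes were at or near 0 throughout. Each is the 250 bases that end just before the RefSeq start site, read 5′ to 3′ on the gene's strand (GRCh38.p14, plus strand, chr19:50854665-50854914 for KLK3 and chr19:50873189-50873438 for KLK2). Capitals mark the androgen half-site AGAACA and the TATA box TATAAA on either strand, where the latter reads TTTATA on the opposite strand.
KLK3: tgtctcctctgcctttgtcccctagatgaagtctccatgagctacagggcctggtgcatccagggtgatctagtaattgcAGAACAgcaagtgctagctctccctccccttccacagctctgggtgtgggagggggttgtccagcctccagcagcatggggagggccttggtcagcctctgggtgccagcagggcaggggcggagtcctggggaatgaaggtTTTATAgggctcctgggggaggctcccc
KLK2: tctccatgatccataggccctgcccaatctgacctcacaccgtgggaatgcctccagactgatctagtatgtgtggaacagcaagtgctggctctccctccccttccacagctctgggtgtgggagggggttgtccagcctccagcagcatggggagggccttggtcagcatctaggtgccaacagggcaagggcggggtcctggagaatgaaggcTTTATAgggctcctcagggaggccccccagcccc
The KLK3 window held the half-site at -170 to -165, counted from the start site, and the TATA box letters at -28 to -23. The KLK2 window held the TATA box letters at -34 to -29 and no AGAACA on either strand. Set against each other without gaps at a shift of 6 bases, the windows were the same at 185 of 244 bases (75.8%), with a longest shared run of 80 bases. At the 6 bases of the half-site they differed by 1 substitution, A1G, where position 1 is the first base of the half-site and the KLK3 base is given first. These matches are letters in a window and say nothing of whether a factor was bound.

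RefSeq windows were found for 7 of the 8 genes, 10 windows in all because KLK4, FKBP5 and STEAP2 have a pair each. TMPRSS2 had no entry. The half-site AGAACA on either strand occurred in 1 of the 10 windows, against 12.4% of 35116 windows of all genes. The full element, AGAACA and TGTTCT set 3 bases apart, occurred in 0 of the 10 and in 0.00285% of all windows. TATAAA on either strand occurred in 3 of the 10, those of KLK2, KLK3 and STEAP2, against 10.7% of all.

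The forkhead motifs TGTTTAC and TGTTTGC, both searched on both strands, each occurred in 1 of the 10 windows, against 2.98% and 3.23% of all. The windows that held them are printed because FOXA1 is itself the forkhead factor of the group. They belong to FOXA1 (minus strand, chr14:37595250-37595499) and to the second start of STEAP2 (plus strand, chr7:90213570-90213819), and capitals mark the forkhead motif and TATAAA.
FOXA1: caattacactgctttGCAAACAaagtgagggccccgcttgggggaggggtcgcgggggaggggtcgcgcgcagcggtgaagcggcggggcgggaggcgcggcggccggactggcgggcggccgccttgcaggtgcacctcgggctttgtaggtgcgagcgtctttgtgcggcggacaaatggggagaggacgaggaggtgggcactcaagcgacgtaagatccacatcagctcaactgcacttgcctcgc
STEAP2: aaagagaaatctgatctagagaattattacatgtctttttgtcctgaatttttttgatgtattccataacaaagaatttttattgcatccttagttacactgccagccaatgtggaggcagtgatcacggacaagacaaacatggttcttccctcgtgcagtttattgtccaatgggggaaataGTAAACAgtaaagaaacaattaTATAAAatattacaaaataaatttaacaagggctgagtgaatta
In FOXA1 the match was TGTTTGC on the opposite strand at -235 to -229. In STEAP2 the match was TGTTTAC on the opposite strand at -66 to -60, and TATAAA lay on the gene's strand at -44 to -39.

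The plot of FPKM by library shows all 8 genes.

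**Figure D1:**
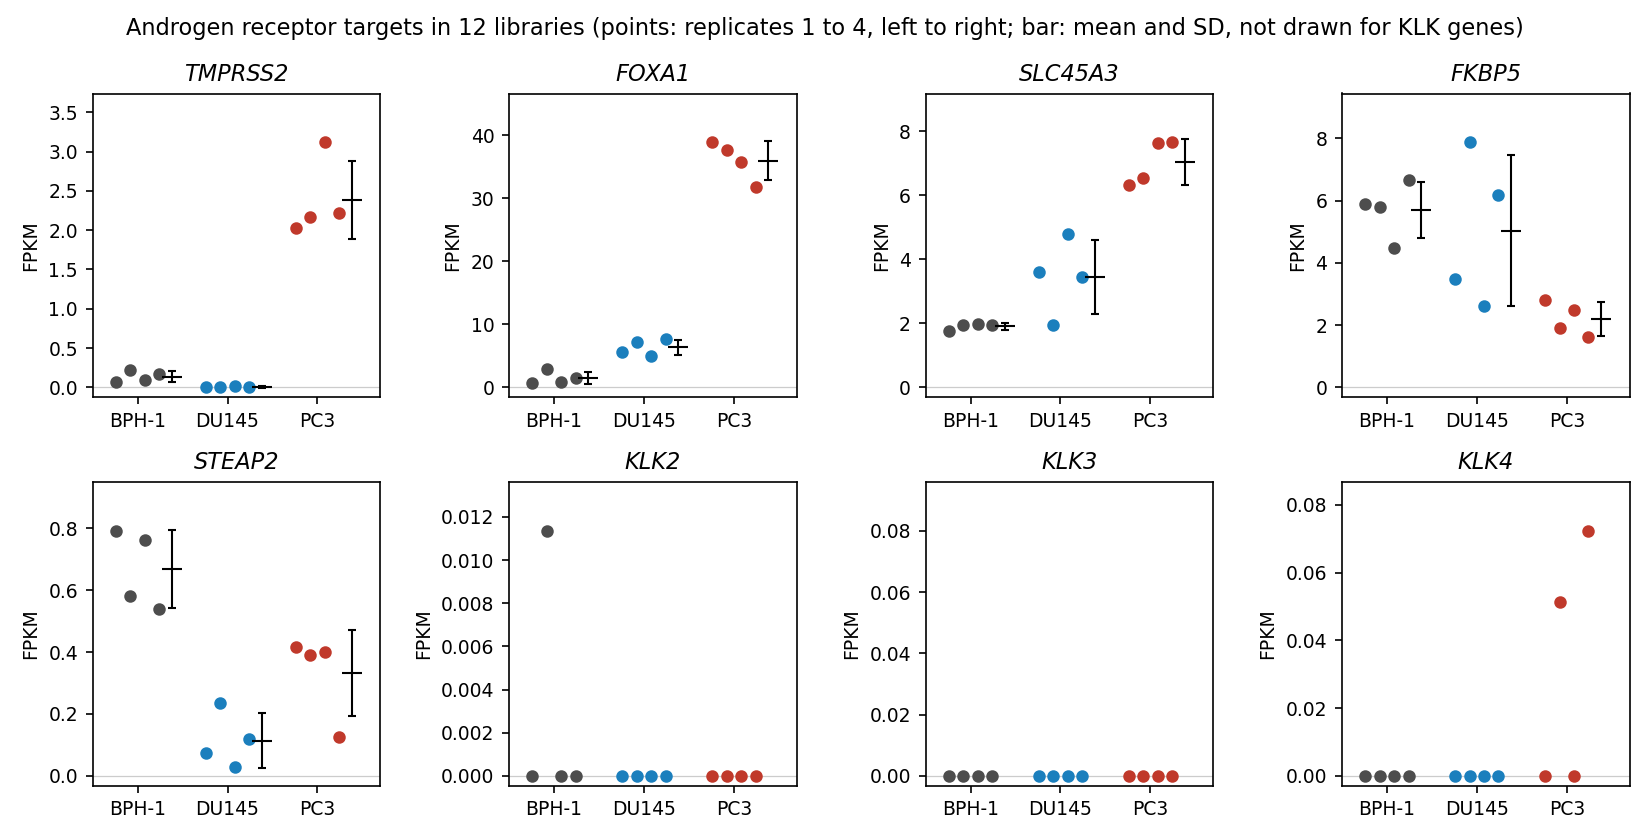
FPKM of each gene (y axis, linear, 1 panel per gene with its own scale) in the 4 libraries of BPH-1, DU145 and PC3 (points, replicates 1 to 4 from left to right), with the mean and SD of each line as a bar for the 5 genes outside the kallikreins. TMPRSS2 is at 2.03 or more in each PC3 library and at 0.215 or less elsewhere, FOXA1 rises from BPH-1 through DU145 to PC3, and KLK3 lies at 0 in all 12 libraries.

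FOXA1 is the pioneer factor that opens chromatin for the receptor. It lies at chr14:37589984-37596059 on the minus strand. Its FPKM was 0.673, 2.90, 0.912 and 1.55 in BPH-1 replicates 1 to 4, 5.56, 7.16, 5.0 and 7.61 in DU145, and 38.8, 37.6, 35.8 and 31.7 in PC3. The 3 lines did not overlap, and BPH-1 was lowest and PC3 highest.

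The mean FOXA1 level was 1.51 ± 0.997 in BPH-1, 6.33 ± 1.25 in DU145 and 36 ± 3.12 in PC3 (SD, n = 4). In PC3 it exceeded that of 96.5% of protein-coding genes, against 52.4% in BPH-1. The difference on the log2(FPKM + 1) scale was 3.96 (SE 0.239, limma adjusted p = 9.25e-07) for PC3 against BPH-1. It was 1.61 (SE 0.267, limma adjusted p = 0.000515) for DU145 against BPH-1 and 2.35 (SE 0.155, limma adjusted p = 3.9e-06) for PC3 against DU145. Each neighbouring pair in the order of lines therefore differed beyond the spread between libraries.

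BPH-1 varied the most for its level, with 66, 281, 90 and 154 FOXA1 reads. TTC6, which overlaps FOXA1 by 213 bases on the opposite strand, had a mean FPKM of at most 0.224 in any line, and use of strand in the counting is not given in the sources used here.

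TMPRSS2 encodes a transmembrane serine protease of luminal cells whose androgen-driven promoter is joined to ETS genes in many prostate tumours. It lies at chr21:41464551-41531116 on the minus strand. It gave 240, 271, 395 and 262 reads in PC3, 10, 30, 13 and 24 in BPH-1, and 0, 0, 3 and 0 in DU145. In FPKM this was 2.03, 2.16, 3.12 and 2.21 in PC3, 0.071, 0.215, 0.0917 and 0.168 in BPH-1, and 0.0213 in DU145 replicate 3 with 0 in the other 3.

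All 4 PC3 libraries were above all others, and all 4 BPH-1 libraries were above all 4 of DU145. Pooled over libraries and depth, reads were 17.5-fold higher in PC3 than in BPH-1 (95% exact interval 13.9 to 22.4). BPH-1 exceeded DU145 25.5-fold, with an interval of 8.4 to 126 that rests on 3 reads in DU145, and PC3 exceeded DU145 447-fold (152 to 2170). These intervals hold counting error and not the spread between libraries.

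On the log2(FPKM + 1) scale the TMPRSS2 difference was 1.56 (SE 0.109, limma adjusted p = 2.34e-06) for PC3 against BPH-1 and 1.74 (SE 0.113, limma adjusted p = 3.65e-06) for PC3 against DU145. With log2(FPKM + 0.1) these became 3.42 and 4.54, and with voom on the reads 4.20 and 8.66. For DU145 against BPH-1, TMPRSS2 missed the filter, because the 10 reads of BPH-1 replicate 1 fell just short of 10 reads at the median depth. The exact permutation test gave p = 0.0286 for that pair (two-sided), the smallest that 4 against 4 libraries allow. In the 6 alternatives that let the gene through, the difference was -0.20 to -0.17 with a limma adjusted p of 0.00521 to 0.0219. Except with no filter, TMPRSS2 passed there only through its BPH-1 reads and could only be lower in DU145, so those calls add nothing.

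SLC45A3, also called prostein, encodes a prostate-restricted transporter of the SLC45 sugar carrier family and lies at chr1:205657851-205680459 on the minus strand. Its FPKM was 1.75, 1.96, 1.98 and 1.96 in BPH-1, 3.62, 1.95, 4.78 and 3.46 in DU145, and 6.32, 6.54, 7.65 and 7.65 in PC3. PC3 lay above both other lines in every library, while DU145 replicate 2 lay within the range of BPH-1.

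The line means were 1.91 ± 0.109, 3.45 ± 1.16 and 7.04 ± 0.712 (SD, n = 4). PC3 differed from BPH-1 by 1.46 (SE 0.109, limma adjusted p = 3.47e-06) and from DU145 by 0.89 (SE 0.209, limma adjusted p = 0.00654). DU145 against BPH-1 gave 0.57 (SE 0.204, limma adjusted p = 0.0323), with an exact permutation p of 0.114. That call held in 8 of 19 alternatives. It was lost without any 1 of the 4 BPH-1 libraries (adjusted p 0.0608 to 0.0792) and without DU145 replicate 1, 3 or 4 (0.0749, 0.0693 and 0.0625). After a correction for GC content the difference was 0.24 (adjusted p = 0.179).

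STEAP2 encodes a metalloreductase that reduces iron and copper and is made by prostate epithelium. It lies at chr7:90167590-90238137 on the plus strand. Its FPKM was 0.791, 0.582, 0.763 and 0.539 in BPH-1, 0.0726, 0.235, 0.0282 and 0.120 in DU145, and 0.417, 0.391, 0.399 and 0.124 in PC3. BPH-1 was above both cancer lines in every library, and PC3 replicate 4 fell among the DU145 libraries with 37 reads against 123 to 127 in the other 3 of PC3.

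The STEAP2 means were 0.669 ± 0.127 in BPH-1, 0.114 ± 0.089 in DU145 and 0.333 ± 0.139 in PC3 (SD, n = 4). DU145 against BPH-1 gave -0.58 (SE 0.0787, limma adjusted p = 0.000139), and the ratio of means was 0.17. PC3 against BPH-1 gave -0.33 (SE 0.0906, limma adjusted p = 0.00958) and a ratio of 0.498, but after the GC correction the difference was -0.018 (adjusted p = 0.89) and the call was lost. PC3 against DU145 gave 0.26 (SE 0.0885, limma adjusted p = 0.0387), and the exact permutation p was 0.0571.

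The last of these calls held in 8 of 19 alternatives. It was lost without DU145 replicate 1, 3 or 4 (adjusted p 0.0916, 0.089 and 0.0707) and without PC3 replicate 1, 2 or 3 (0.0976, 0.0951 and 0.0956). With voom on the reads the 3 STEAP2 differences were -2.89, -1.13 and 1.76 in the order given, and with log2(FPKM + 0.1) they were -1.92, -0.89 and 1.03. STEAP2-AS1, on the opposite strand, was listed at 0 in every line.

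FKBP5 encodes FKBP51, a co-chaperone of steroid receptors that both androgens and glucocorticoids induce. It lies at chr6:35573585-35728583 on the minus strand. Its FPKM was 5.89, 5.79, 4.49 and 6.65 in BPH-1, 3.49, 7.87, 2.60 and 6.19 in DU145, and 2.81, 1.90, 2.48 and 1.62 in PC3. Every PC3 library was below every BPH-1 library, and DU145 spread over both ranges.

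The FKBP5 means were 5.71 ± 0.899 in BPH-1, 5.04 ± 2.43 in DU145 and 2.2 ± 0.542 in PC3 (SD, n = 4). PC3 against BPH-1 gave -1.07 (SE 0.159, limma adjusted p = 0.000249), or -0.59 after the GC correction (adjusted p = 0.00657). DU145 against BPH-1 gave -0.23 with a 95% interval of -0.86 to 0.39 (limma adjusted p = 0.487), and 0.33 after the GC correction (adjusted p = 0.134). No difference between those 2 lines could be told from the spread, and the interval still holds differences of some size in either direction.

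PC3 against DU145 gave an FKBP5 difference of -0.84 (SE 0.291, limma adjusted p = 0.0388), with an exact permutation p of 0.0571. The call held in 12 of 19 alternatives. It was lost without DU145 replicate 2 or 4 (adjusted p 0.0823 and 0.097) and without PC3 replicate 2, 3 or 4 (0.0908, 0.0654 and 0.0889).

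The spread within DU145 and PC3 went with the GC content of genes. For each library the deviation of each gene from its line's mean was correlated with the gene's GC content over 7586 genes, which are not independent replicates. The r was 0.545, -0.629, 0.606 and -0.518 in DU145 replicates 1 to 4, -0.427, -0.365, 0.0581 and 0.483 in PC3, and -0.152 to 0.162 in BPH-1. STEAP2 and FKBP5 have the lowest GC content of the 8 genes (40.7% and 43.1%), and the other 6 lie between 53.4% and 59.1%.

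FKBP5 stood at 1.56 and 1.23 times its line mean in DU145 replicates 2 and 4 and at 0.692 and 0.517 times in replicates 1 and 3. STEAP2 stood at 2.06, 1.05, 0.637 and 0.248 times in the same order. SLC45A3, at a GC content of 56.9%, stood at 0.566 times in replicate 2 and 1.38 times in replicate 3. Thus FKBP5 and STEAP2 were high in the DU145 libraries where genes of low GC content were high, and the part of that trend in their differences between lines was tested only by the GC correction.

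**Figure D2:**
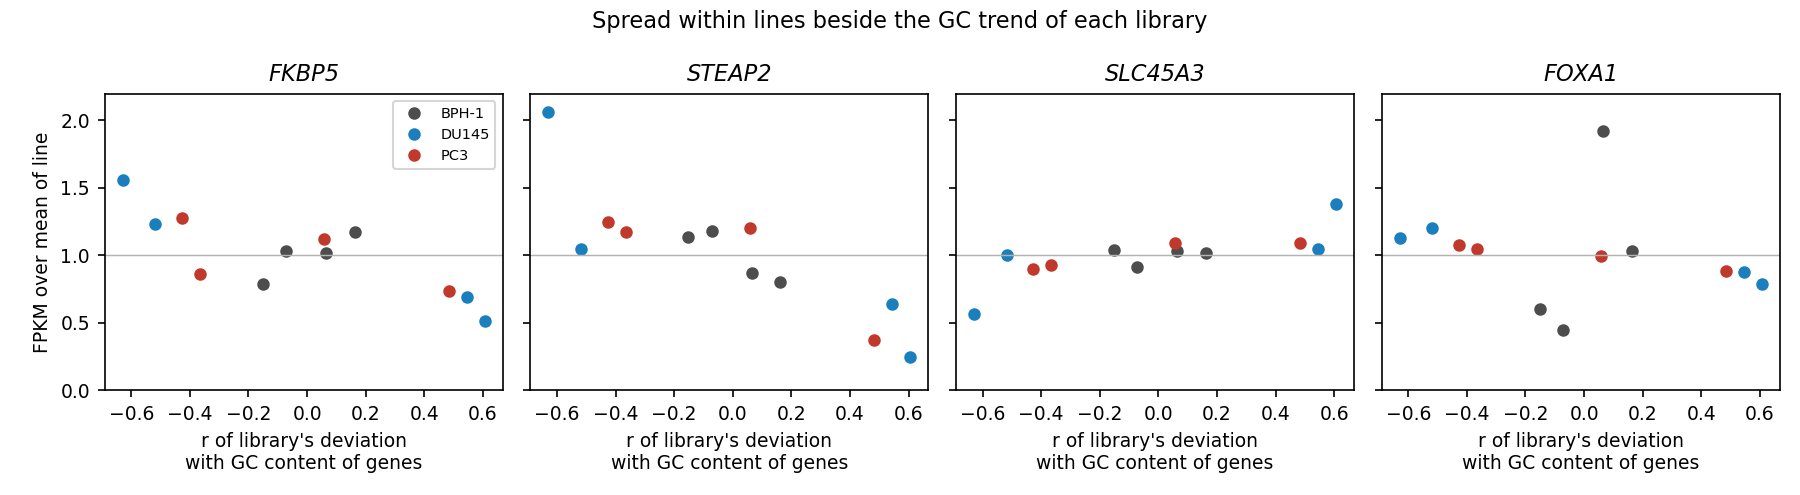
FPKM of FKBP5, STEAP2, SLC45A3 and FOXA1 divided by the mean of its line (y axis, linear) against the r of each library's deviation with the GC content of genes (x axis), 1 point per library, coloured by line. STEAP2 falls from 2.06 in DU145 replicate 2 to 0.248 in DU145 replicate 3, FKBP5 falls likewise, and FOXA1 spreads most in BPH-1, where r is near 0.

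Within BPH-1, where that trend was weak, FOXA1 and TMPRSS2 had the same order of libraries, with replicates 2 and 4 above 1 and 3. STEAP2 had the reverse split, with 0.582 and 0.539 in replicates 2 and 4 against 0.791 and 0.763 in 1 and 3. The neighbouring kallikreins KLK5, KLK7 and KLK10 were also higher in BPH-1 replicates 2 and 4, KLK10 at 4.41 and 5.11 against 1.53 and 1.35. The r with GC content split likewise, at 0.0644 and 0.162 in replicates 2 and 4 against -0.0716 and -0.152 in 1 and 3. After the GC correction FOXA1 was at 0.452, 1.9, 0.623 and 1.02 times its line mean in replicates 1 to 4. STEAP2 was then at 1.18, 0.907, 1.11 and 0.806 times. The part of the GC trend in these orders was not tested. With 4 libraries these orders are a description of those libraries.

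For PC3 against BPH-1, all 5 members tested were called, 3 higher and 2 lower, where 67.6% of the 16408 genes tested were called, 27.1% higher and 40.4% lower. The libraries of the lines did not overlap for the same 5, against 64.4% of all genes. A call was thus the common outcome for any gene in this comparison. TMPRSS2 could not have passed the filter there without its PC3 reads, because BPH-1 replicate 1 fell just short of it. The filter thus favoured a rise of TMPRSS2, and its call adds nothing to the counts of calls and rises. The median difference of all genes was -0.13, below 0, so the 3 rises were slightly larger and the 2 falls slightly smaller when read against it.

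For DU145 against BPH-1, 3 of 4 members tested were called, FOXA1 and SLC45A3 higher and STEAP2 lower, where 62.7% of 17016 genes were called, 30.3% higher and 32.4% lower. For 2 of the 4 the lines did not overlap, against 59.5% of all genes. For PC3 against DU145, 5 of 5 were called, 4 higher and FKBP5 lower, where 48.3% of 16420 genes were called, 20.0% higher and 28.3% lower. For 3 of the 5 the lines did not overlap, against 46.5% of all genes.

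TMPRSS2 passed the filter in PC3 against DU145 only through its PC3 reads and could only be higher there, so its call adds nothing to that count. The comparisons share libraries, so their values are not independent of one another. The exact permutation test was run 15 times, for 5 genes in 3 comparisons, and gave its smallest possible p of 0.0286 for 5 of 5 genes in PC3 against BPH-1, 3 of 5 in DU145 against BPH-1 and 3 of 5 in PC3 against DU145. The counts of both comparisons with DU145 include TMPRSS2, which was at or near 0 in DU145 and could differ in 1 direction only.

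**Figure D3:**
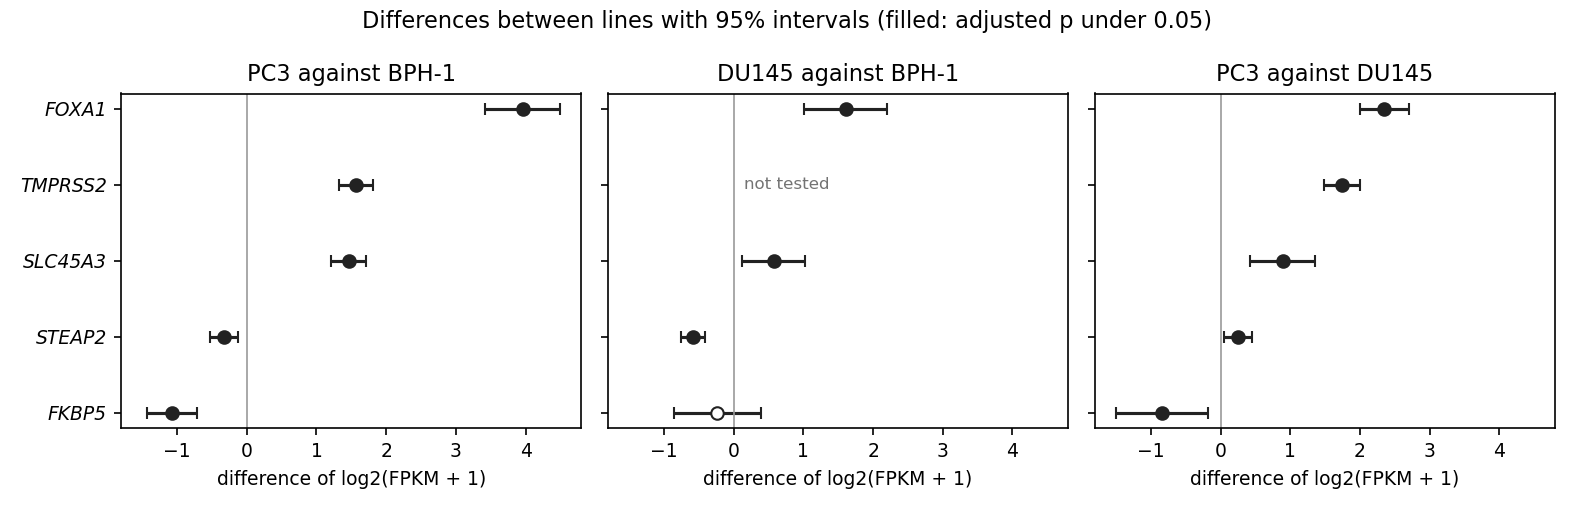
Difference of log2(FPKM + 1) (x axis, linear) for the 5 detected members in the 3 comparisons, with 95% intervals from limma as bars and filled points where the adjusted p is under 0.05. FOXA1, TMPRSS2 and SLC45A3 lie right of 0 wherever tested, the STEAP2 points lie left of 0 against BPH-1, and the FKBP5 interval for DU145 against BPH-1 spans 0 (-0.86 to 0.39).

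Levels can be set beside each other between genes only per unit of length, and the authors' length counted each distinct exon of every transcript, which lowers genes with many overlapping exons. With merged exons, the PC3 means on the FPKM scale were 57.4 for FOXA1, 7.04 for SLC45A3, 3.56 for TMPRSS2, 2.76 for FKBP5 and 0.877 for STEAP2. In DU145 they were 10.1 for FOXA1, 6.31 for FKBP5, 3.45 for SLC45A3, 0.3 for STEAP2 and 0.00795 for TMPRSS2. In BPH-1 FKBP5 led with 7.15, followed by FOXA1 at 2.41, SLC45A3 at 1.91, STEAP2 at 1.76 and TMPRSS2 at 0.204. The choice of length changes the level of a gene in all lines alike and leaves the ratio between lines as it was.

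Other genes shared the members' patterns. Among 11670 genes with a mean of at least 100 reads, Pearson's r of log2(FPKM + 1) over the 12 libraries was computed with each of the 5 members as a measure of likeness, which mostly follows the 3 lines. The genes most like TMPRSS2 were GPR153 (r = 0.997), LINC01116 (0.995) and RAB3A (0.993). Those most like FOXA1 were ARHGAP31 (0.989), COL6A1 (0.988) and RNF144A (0.984). Those most like SLC45A3 were STEAP3 (0.987), SH2B2 (0.986) and LRP5 (0.986).

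For STEAP2 they were VPS26A (r = 0.980), SIX4 (0.978) and FGFR1OP (0.973), and for FKBP5 they were SECISBP2 (0.975), HNRNPLL (0.965) and PICALM (0.963). An r over 0.95 was reached by 233 genes with TMPRSS2, 199 with SLC45A3, 85 with STEAP2, 75 with FOXA1 and 24 with FKBP5. GPR153 went from a mean FPKM of 5.09 in BPH-1 and 3.41 in DU145 to 149 in PC3.

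The lists that follow are described by their counts and medians. A list gene that passed the filter only through the line where it was high could be called in 1 direction only, and the counts support nothing about a list as a whole.

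The other androgen-responsive prostate genes, a list of 30, moved in both directions. For PC3 against BPH-1, 7 rose and 13 fell of 27 tested (median -0.41, against -0.13 over all genes), where 27.1% of all genes rose and 40.4% fell. For DU145 against BPH-1, 3 rose and 12 fell of 25 tested (median -0.38, against -0.03), where 30.3% of all genes rose and 32.4% fell. For PC3 against DU145, 10 rose and 5 fell of 25 tested (median 0.11, against -0.05), where 20.0% of all genes rose and 28.3% fell.

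SPDEF, an ETS factor of secretory epithelium, was at 45.7 ± 4.6 in PC3 and had a mean of 0.0565 in BPH-1 and 0.0133 in DU145 (n = 4). It rose in PC3 by 5.46 against BPH-1 (limma adjusted p = 2.6e-09). SPDEF passed the filter there only through its PC3 reads and could only be higher, so this call adds nothing. ALDH1A3, an enzyme of retinoic acid synthesis, was at 384 ± 61.7 in PC3, 55.7 ± 32 in BPH-1 and 7.9 ± 1.53 in DU145, and ADAMTS1, a secreted protease, was at 26.2 ± 8.94, 2.34 ± 0.568 and 0.111 ± 0.0745 in that order. INPP4B, a lipid phosphatase, went the other way, from 5.12 ± 0.887 in BPH-1 to 0.155 ± 0.0795 in PC3 and 0.28 ± 0.231 in DU145.

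Of 12 pioneer and cofactor transcription factors, 11 were tested for PC3 against BPH-1, and 7 rose and 3 fell (median 1.37, against -0.13 over all genes, of which 27.1% rose and 40.4% fell). For PC3 against DU145, 7 rose and 2 fell of 9 tested (median 0.87, against -0.05 over all genes, of which 20.0% rose and 28.3% fell), and the counts of both comparisons were the same under the 4 rescalings. For DU145 against BPH-1, 4 rose and 5 fell of 10 tested, against 30.3% and 32.4% of all genes. The median there was 0.07, or -0.04 at equal library sums and -0.02 after the GC correction, and both of these left 2 rises. HOXB13, a homeobox partner of the receptor in prostate, was at 69.4, 75.3, 81.1 and 71.3 in PC3, at 1.76, 1.89, 1.34 and 1.44 in BPH-1 and at 0 in each DU145 library. GRHL2, an epithelial grainyhead factor, was at 12.7 ± 1.62 in BPH-1 and at or below a mean of 0.0201 in the cancer lines. ETV5, an ETS factor, was at 31.3 ± 2.71 in DU145 against 2.97 ± 0.955 in BPH-1. Some calls of this list were fixed in direction by the filter and add nothing to its counts. SPDEF passed only through PC3, GRHL2 only through BPH-1, and HOXB13 in comparisons with DU145 only through the other line.

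In the FOXA family, FOXA2 was highest in PC3 as FOXA1 was, with a mean of 0.466 ± 0.203 in BPH-1, 1.04 ± 0.361 in DU145 and 13.5 ± 4.69 in PC3 (n = 4). It differed by 3.24 for PC3 against BPH-1 (limma adjusted p = 5.54e-06) and by 2.77 for PC3 against DU145 (limma adjusted p = 5.23e-05). FOXA3 stayed below the filter. In the SLC45 family, all 3 genes tested rose in PC3 against BPH-1, where 67.6% of all genes were called and 27.1% rose. SLC45A1 passed the filter there only through its PC3 reads and could only rise, so it adds nothing to that count. SLC45A1 went from 0.0335 ± 0.0353 in BPH-1 to 1.25 ± 0.409 in DU145 and 1.35 ± 0.332 in PC3, and SLC45A4 from 1.06 ± 0.277 to 2.59 ± 0.591 and 4.5 ± 0.978. SLC45A2 was listed at 0 in the means of all lines.

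In the STEAP family, STEAP1, a surface protein of prostate epithelium, was lower in DU145 as STEAP2 was. STEAP1 was at 5.3 ± 0.395 in BPH-1, 1.05 ± 0.518 in DU145 and 5.58 ± 1.78 in PC3, a difference of -1.65 for DU145 against BPH-1 (limma adjusted p = 6.32e-05). STEAP3, a ferrireductase, rose in PC3 to 9.51 ± 1.16 from 3.33 ± 0.155 in BPH-1 (limma adjusted p = 9.09e-06). STEAP4 had 0.954 ± 1.27 in BPH-1 and did not pass the test in any comparison.

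Among steroid receptors other than that for androgen, the glucocorticoid receptor gene NR3C1 bears on FKBP5 as background, since glucocorticoids induce it. NR3C1 was at 6.31, 4.61, 5.08 and 2.71 in BPH-1, at 0.421, 7.02, 0.196 and 2.56 in DU145 and at 1.19, 1.38, 0.513 and 0.254 in PC3. As for FKBP5, DU145 replicates 2 and 4 were above 1 and 3. This split was not particular to these genes. STEAP1 and STEAP2 had it too, SLC45A3 had the reverse, and the DU145 libraries differed in the GC trend described above. The part of that trend in the NR3C1 values was not tested. NR3C1 differed by -1.64 for PC3 against BPH-1 (limma adjusted p = 0.000375) and by -1.06 for DU145 against BPH-1 (limma adjusted p = 0.109). NR3C2, the mineralocorticoid receptor gene, was at 0.435 ± 0.185 in PC3 against 0.0191 ± 0.0149 in BPH-1 and 0.00566 ± 0.00732 in DU145.

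Of the 10 glucocorticoid-responsive genes that the androgen response shares, FKBP5 among them, 2 rose and 6 fell of 9 tested for PC3 against DU145 (median -0.84), where 20.0% of all genes rose and 28.3% fell. For DU145 against BPH-1, 4 rose and 1 fell of 9 (median 0.19), against 30.3% and 32.4% of all genes. For PC3 against BPH-1, 3 rose and 4 fell of 9 (median -0.11), against 27.1% and 40.4% of all genes. This split became 2 and 5 at equal library sums (median -0.26) and after the GC correction (median -0.42). It stayed at 3 and 4 with upper-quartile or median-of-ratios scaling. In DU145 against BPH-1 equal library sums and the GC correction each gave 4 and 2. DUSP1, a MAP kinase phosphatase, was at 141 ± 30 in DU145 against 14.4 ± 2.64 in BPH-1 and 15.8 ± 9.86 in PC3. TSC22D3, the glucocorticoid-induced leucine zipper, was at 6.66 ± 1.84 in DU145 against 1.07 ± 0.187 and 0.909 ± 0.0651. MT2A, a metallothionein, was at 10.3 ± 3.91 in PC3 against 71.8 ± 15.4 in DU145 and 67.1 ± 23.1 in BPH-1.

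Of 12 steroid receptor chaperones, all tested, 1 rose and 6 fell in DU145 against BPH-1 (median -0.55), where 30.3% of all genes rose and 32.4% fell. In PC3 against DU145, 6 rose and 0 fell (median 0.62), or 9 and 0 after the GC correction, where 20.0% of all genes rose and 28.3% fell. HSPA8, a constitutive HSP70, was at 18.2 ± 2.07 in DU145 against 143 ± 18.6 in BPH-1 and 151 ± 21.5 in PC3. For PC3 against BPH-1, 4 chaperone genes rose and 3 fell, against 27.1% and 40.4% of all genes. This split turned with the scaling, to 2 and 4 at equal library sums, 2 and 3 after the GC correction, and 6 and 3 with upper-quartile or median-of-ratios scaling, and the median of 0.20 became -0.08 at equal library sums. Of 12 coactivators and corepressors, all tested, 2 rose and 10 fell in PC3 against BPH-1 (median -1.06, against -0.13 over all genes), where 27.1% of all genes rose and 40.4% fell. In DU145 against BPH-1, 0 rose and 6 fell (median -0.94, against -0.03), where 30.3% of all genes rose and 32.4% fell. NCOA4, which also carries ferritin to the lysosome, fell from 38.7 ± 4.08 in BPH-1 to 10 ± 2.57 in PC3 (limma adjusted p = 1.62e-05).

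The 14 FK506-binding proteins, FKBP5 among them, moved in both directions, with 4 rises and 6 falls of 13 tested in PC3 against BPH-1 and 3 of each in DU145 against BPH-1 and in PC3 against DU145, where 67.6%, 62.7% and 48.3% of all genes were called. The split moved with the scaling. In PC3 against BPH-1 it was 2 and 6 at equal sums and 7 and 6 with the upper quartile, in DU145 against BPH-1 it was 2 and 5 at equal sums and 1 and 4 after the GC correction, and in PC3 against DU145 it was 5 and 3 after the GC correction. Of the calls in PC3 against BPH-1, FKBP2 went from 0.51 to -0.02 and FKBP3 from -0.88 to 0.03 after the GC correction, and both were then not called. These genes are named for that change, after their values were seen. FKBP8, a mitochondrial member, went from 15.2 ± 0.957 in BPH-1 to 32.7 ± 8.32 in DU145 and 35.4 ± 4.32 in PC3. Among 18 type II transmembrane serine proteases, 6 passed the filter in PC3 against BPH-1. TMPRSS11E, TMPRSS13 and TMPRSS4 were at 0 in every PC3 library, passed only through BPH-1 and could only be lower in PC3, so no count is read from this list. TMPRSS11E was at 22.2 ± 5.55 in BPH-1 and at 0 in PC3, and ST14, the gene of matriptase, was at 38.9 ± 14.5 in BPH-1 against 1.22 ± 0.209 in PC3 and 0.977 ± 0.289 in DU145.

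Of the 12 kallikreins next to KLK2, KLK3 and KLK4, 5 passed the filter against BPH-1, through their BPH-1 reads, and none passed it for PC3 against DU145. Such genes could only be lower in the cancer lines, so their levels are given and no count is read from them. KLK10 was at 3.1 ± 1.94 in BPH-1, 0.0493 ± 0.018 in PC3 and 0.0359 ± 0.0374 in DU145, and KLK5 was at 0.925 ± 0.808 in BPH-1 and at 0 in every library of the cancer lines. Of the 5 basal markers, KRT5, KRT14, TP63 and DSG3 were also highest in BPH-1 and KRT15 was not, and their part in the kallikrein values was not tested.

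**Figure D4:**
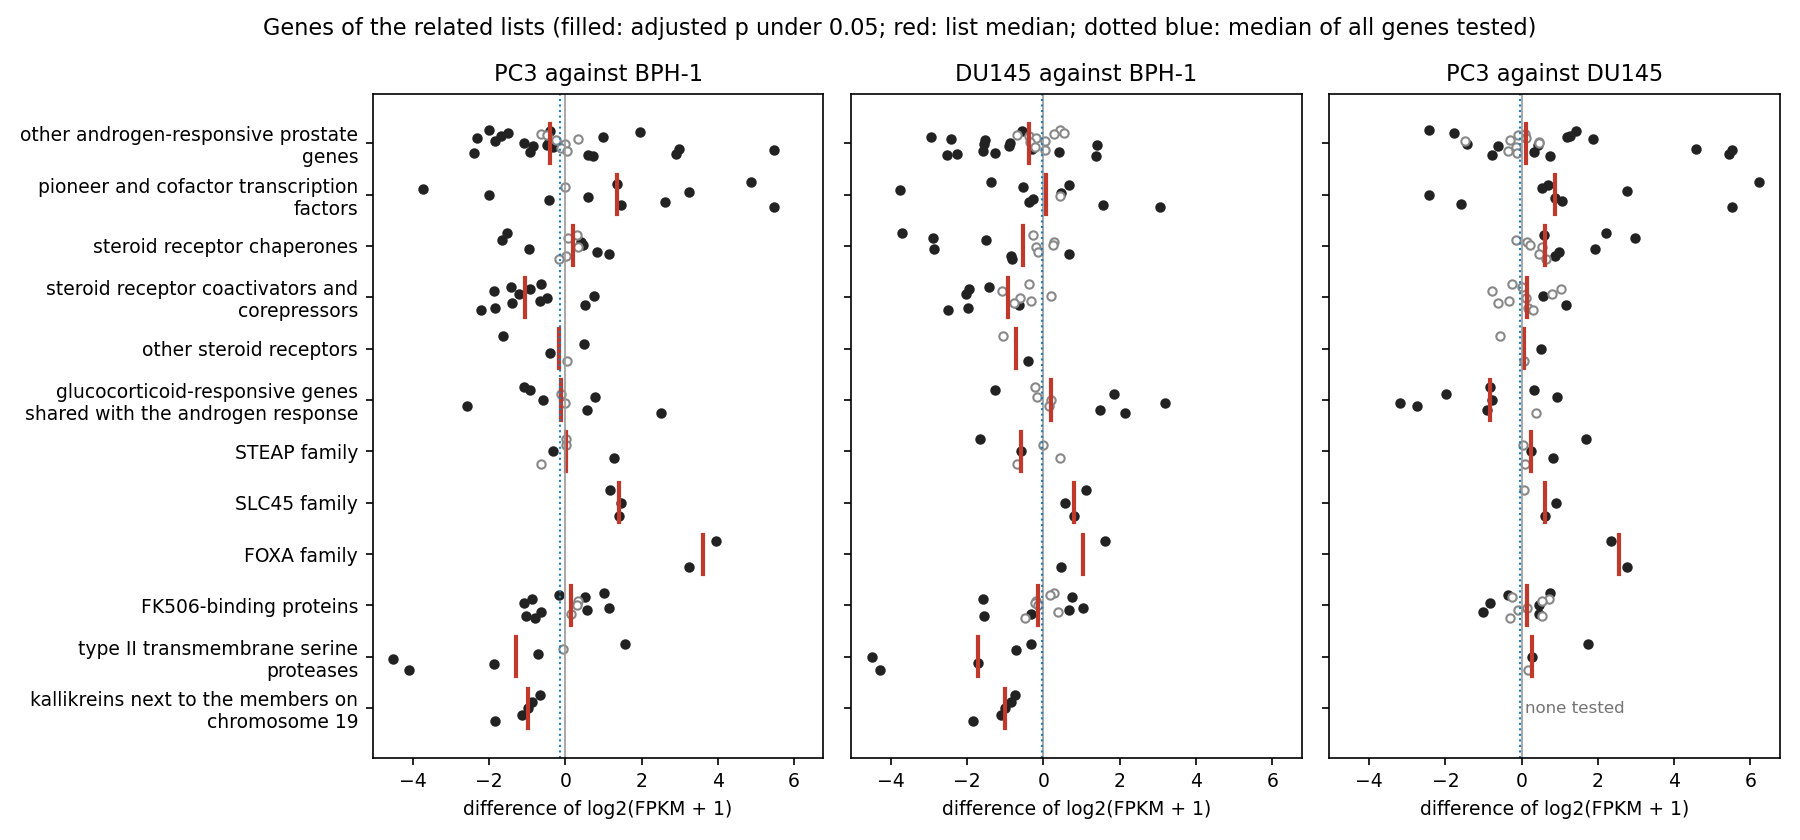
Difference of log2(FPKM + 1) (x axis, linear) of each tested gene of the 12 related lists (y axis) in the 3 comparisons, filled where the limma adjusted p is under 0.05, with the median of each list in red and that of all genes tested as a dotted blue line. The 5 kallikreins that passed the filter did so through BPH-1 and could only lie left of 0, and the pioneer and cofactor factors reach from -3.75 to 6.23.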

How the data were processed

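The authors deposited 1 table of normalized values for 12 libraries. Its header gives no unit, and the form of the deposited values is that of FPKM, which were compared as they stand. Gene length was inferred from the table. With the sum of distinct GENCODE 29 exons, 93.2% to 94.3% of low values came within 0.05 of a whole read among protein-coding genes, against 15.5% to 27.2% with merged exons. Depth and reads per gene followed from these steps. The submitters' processing notes list CASAVA 1.8, HISAT2 2.1.0, edgeR and GRCh38, with no role given. Of 58302 genes, 263 had no length and were left out.

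The test was limma (version 3.58.1, R 4.3.3, trended prior) on log2(FPKM + 1), fitted to the lines compared. Genes needed 10 reads or more, scaled to the median depth of 15341002, in 4 libraries, and 15 reads in all. Adjusted p-values are Benjamini-Hochberg values over all genes tested. A count model had been foreseen in case the table held counts, and was not used. Exact permutation tests over libraries were two-sided. Python 3.11.15, numpy 2.4.6, pandas 2.3.3, scipy 1.17.1 and matplotlib 3.10.9 were also used. The limma step and the recovery of depth were tested on simulated data.

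Alternatives were no filter, a stricter filter, an FPKM filter of 0.1, log2(FPKM + 0.1), 1 fit over all 3 lines, a replicate block, equal library sums, upper-quartile and median-of-ratios scaling, voom on recovered reads and leaving out each library. A correction for GC content was chosen after seeing the data. It removed the trend of log2 FPKM with gene GC content in every library, fitted as a spline (5 degrees of freedom) to genes of at least 50 reads. The 4 rescalings of the lists are the 3 scalings and this correction.

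All 8 members are named. Every gene may be named in lists of up to 5 genes, and otherwise up to 4 per comparison with the largest difference among called genes whose lines do not overlap. The members and lists were chosen with earlier results of these data known. Genes of like pattern are the 3 with the highest r. Sequences before start sites are from RefSeq (GRCh38.p14). The receptor's own transcript and the values of some list genes are not reported here.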

Additional observations from a re-analysis of the deposited data

Results flagged for a closer look

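In 5 of 17 groups of 4 libraries, 1 library lay further from the others than Dixon's 95% criterion allows. The nominal rate of 1 in 20 does not hold for groups of mostly 0 reads, so whether this count is an excess cannot be judged from it. TMPRSS2 in PC3 replicate 3 was at 3.12 FPKM against 2.03 to 2.21 in the other 3. STEAP2 in PC3 replicate 4 was at 0.124 against 0.391 to 0.417. SLC45A3 in BPH-1 replicate 1 was at 1.75 against 1.96 to 1.98, which is 100 reads against 111 to 114. The other 2 rest on 3 reads each, KLK2 in BPH-1 replicate 2 at 0.0114 and TMPRSS2 in DU145 replicate 3 at 0.0213, with 0 in the other libraries of those lines. In such a group any value above 0 is flagged.

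The effect against BPH-1 differed between PC3 and DU145 for 5 genes, tested as the difference between the cancer lines on the log2(FPKM + 1) scale with limma. It was 1.74 for TMPRSS2, 2.35 for FOXA1, 0.89 for SLC45A3, 0.26 for STEAP2 and -0.84 for FKBP5. These are the calls of PC3 against DU145 given above and not a separate result, and TMPRSS2 could only be higher there. For STEAP2 the libraries of both cancer lines overlapped and for FKBP5 they did too, with limma adjusted p = 0.0387 and 0.0388. The exact permutation p was 0.0571 for each gene, and the calls held in 8 and 12 of 19 alternatives.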

How the results depend on the processing

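Of 265 alternative values of the members' differences, 264 had the sign of the main value, and the exception was FKBP5 in DU145 against BPH-1, which was not called and was 0.33 after the GC correction. In 235 the call was the same and in 30 it was lost. The losses were SLC45A3 in DU145 against BPH-1, FKBP5 and STEAP2 in PC3 against DU145, and STEAP2 in PC3 against BPH-1 after the GC correction, and the cause of each was not tested. In PC3 against DU145 the count of members called fell from 5 to 3 with no filter, with the stricter filter (which tested 4 members) and with the replicate block, and was 3 to 4 when 1 library was left out, 3 without DU145 replicate 4, PC3 replicate 2 or PC3 replicate 3. The stricter filter tested 12818 genes there and called 5265, against 7936 of 16420. Leaving out 1 library gave 10601 to 11320 calls in PC3 against BPH-1, 9617 to 11458 in DU145 against BPH-1 and 7019 to 8239 in PC3 against DU145.

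The labels do not say whether libraries of the same replicate number were paired. Deviations of same-numbered libraries correlated between -0.73 and 0.56. The GC trend of the libraries also enters these values, so they cannot decide the pairing. With the replicate block 10733, 10131 and 6747 genes were called in the 3 comparisons in the order above, and 5, 2 and 3 members. Equal library sums moved the share of rises among all calls from 40.2% to 30.3% in PC3 against BPH-1 and the median of all genes from -0.13 to -0.28. Depth limits what can be said of KLK2, KLK3 and KLK4.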
